A study of Mus musculus with 8 samples.

Results

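The Slc25a genes encode the mitochondrial carriers, and their RNA was followed in cultured fat cells that carried a control hairpin or a hairpin against PRDM16 and were kept without or with rosiglitazone. A gene was counted as a member if the array annotation gave it a symbol that starts with Slc25a, and all probe sets of such a gene were used, a probe set being the group of short oligonucleotides that reads 1 transcript. This found 33 of the 12393 genes with a probe set of their own, and 65 of 22690 probe sets. A single probe set stood for 18 of the 33 genes, and 15 had more, up to 8 for Slc25a5. Of the 33 genes, 31 passed the filter on low values and were tested, while Slc25a2 (10.4 to 25.1 over the 8 arrays) and Slc25a48 (1.2 to 3.5) were among the 25% of genes with the lowest values. RefSeq holds 47 Slc25a symbols, and the 14 with no named probe set, among them the citrate carrier Slc25a1, were not analysed here.

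SV cells, the stromal-vascular fraction, were taken from inguinal white fat of male C57BL/6J mice and turned into adipocytes in culture. One line carried sh-scr, the control hairpin, and the other sh-PRDM16, a hairpin named for the co-regulator of brown fat genes PRDM16. Each was kept with no agent or with rosiglitazone, an agonist of the nuclear receptor PPARγ, at 1 µM, and the design asks how the response to the agonist depends on PRDM16. Each of the 4 groups (untreated or treated sh-scr, and untreated or treated sh-PRDM16) has 2 arrays. Both hairpin lines and both treatments thus share the same mouse strain, depot and differentiation, and the labels name a single hairpin for PRDM16. The arrays are labelled biological replicates without word on separate cultures or mice, so the p-values measure the spread between these arrays. Prdm16 itself was not analysed here, so membership of the sh-PRDM16 groups is taken from the labels.

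Mitochondrial carriers are built from a repeated pair of membrane helices and, with few exceptions, sit in the inner mitochondrial membrane. Each exchanges or imports a small set of solutes, such as acylcarnitines, dicarboxylates, amino acids, nucleotides, phosphate, cofactors or iron, so they connect the pathways of the cytosol with those of the matrix. In fat cells they serve fatty acid oxidation, citrate and malate export for lipogenesis, and ATP exchange, and the uncoupling protein of brown fat, Ucp1, has the same fold.

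Median intensity per array lay between 101 and 136, replicate arrays correlated at r = 0.991 across probe sets in each group, and arrays of different groups at no more than 0.984. Having only 2 arrays in a group sets the precision: the median standard error (SE) of a log2 change was 0.15, over all genes and over the members alike. Changes are differences of log2(intensity + 16) between group means, and a gene is said to rise or fall where limma's test, adjusted over all 9294 genes by the Benjamini-Hochberg method, gave a value under 0.05. The median of all genes shifted with treatment in sh-scr cells by log2 -0.31, so changes are also given on arrays centred on their median and on quantile-normalized arrays. Beta-actin control probe sets read the 3′ end above the 5′ end by log2 0.38 and 0.49 in treated sh-scr and by 0.25 to 0.34 on the other arrays. In Gapdh control probe sets the 3′ end read below the 5′ end on every array, and treated sh-scr did not stand apart. The log2 values were -0.35 and -0.35 in treated sh-scr, -0.35 and -0.33 in treated sh-PRDM16, and -0.45 to -0.40 on untreated arrays. These ratios are a sign of RNA quality whose part in the results was not tested.

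In sh-scr cells rosiglitazone raised the acylcarnitine carrier Slc25a20, the glutamate carrier Slc25a22, the S-adenosylmethionine carrier Slc25a26 and the pyrimidine nucleotide carrier Slc25a33, 4 of 31 members against 5.2% of all genes. It lowered Slc25a13, Slc25a30, Slc25a35, Slc25a36, Slc25a37 and Slc25a38, 6 of 31 members against 32.2% of all genes. The members' median change was log2 -0.06, and 20 of 31 lay above the median of all genes. On median-centred arrays 13 members rose (14.9% of all genes) and 4 fell (10.7%), with Slc25a4, Slc25a5, Slc25a11, Slc25a25, Slc25a39, Slc25a44, Slc25a46, Slc25a47 and Slc25a51 added to the rises. The 4 rises and the falls of Slc25a13, Slc25a30, Slc25a35 and Slc25a37 passed on all 3 scales, while Slc25a36 and Slc25a38 passed on the deposited scale alone. Without untreated sh-scr replicate 1 or treated sh-scr replicate 1 the count was 5 rather than 10 members. Slc25a13, Slc25a20, Slc25a30, Slc25a35 and Slc25a37 passed whichever of the 8 arrays was left out, and for the other 5 the highest adjusted p without an array was 0.0639 (Slc25a26) to 0.208 (Slc25a36).

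The sh-PRDM16 arrays are not shared with the sh-scr comparison, but the spread was estimated over all 8 arrays, so the calls are not independent. In sh-PRDM16 cells rosiglitazone raised 11 of 31 members against 10.1% of all genes. These were the same 4 that rose in sh-scr cells, and Slc25a10, Slc25a11, Slc25a28, Slc25a35, Slc25a42, Slc25a44 and Slc25a51. Slc25a30 fell, 1 of 31 against 3.31%. The members' median change was log2 0.33 beside 0.00 for all genes, and all 12 calls passed on the median-centred and quantile-normalized arrays too. Leaving out replicate 2 of untreated sh-PRDM16 gave a count of 5, replicate 1 of the treated sh-PRDM16 pair 7, and replicate 2 of that pair 5. Slc25a10, Slc25a20, Slc25a22, Slc25a44 and Slc25a51 passed whichever array was left out, and for the other 7 the highest adjusted p without an array was 0.0659 (Slc25a33) to 0.236 (Slc25a30). Across both lines, 4 members rose in both (4.44% of all genes), 1, Slc25a30, fell in both (2.82%), and 1, Slc25a35, fell in sh-scr and rose in sh-PRDM16 cells (0.161%). The sign of the change was the same in 21 of 31 members, beside 63.9% of all genes.

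**Figure D1:**
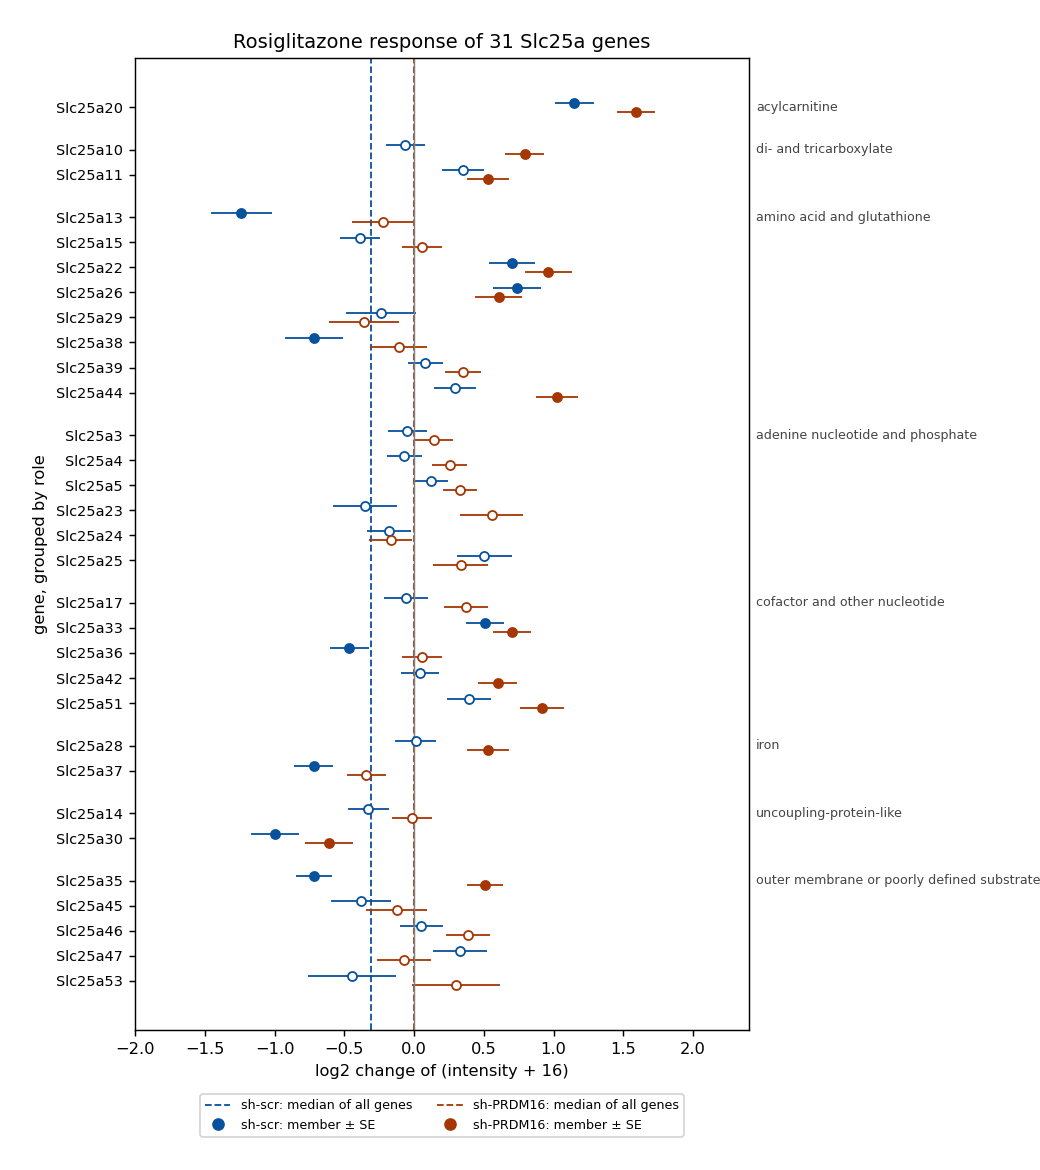
Rosiglitazone response of the 31 tested Slc25a genes, grouped by role, as the log2 change of (intensity + 16) ± SE in sh-scr (blue) and sh-PRDM16 cells (brown), 2 arrays per group; filled points passed the adjusted p of 0.05 and dashed lines mark the median of all genes. Slc25a20 has the largest rise in both lines (1.15 and 1.59), and Slc25a35 has filled points on opposite sides of 0 (-0.72 and 0.51).

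Without rosiglitazone, 10 of 31 members were lower in sh-PRDM16 than in sh-scr cells, against 15.5% of all genes: Slc25a10, Slc25a20, Slc25a23, Slc25a26, Slc25a33, Slc25a35, Slc25a42, Slc25a44, Slc25a46 and Slc25a51. By limma 0 members were higher (1.99% of all genes), and at an unadjusted p under 0.05 there were 14 lower (27% of all genes) and 1 higher (4.38%). The members' median was log2 -0.36 beside -0.16 for all genes, and 9 of the 10 calls passed on all 3 scales, all but Slc25a23. On median-centred arrays 10 members were lower (12.2% of all genes) and Slc25a24 and Slc25a37 were higher, 2 of 31 against 9.31%. Leaving out replicate 1 of untreated sh-scr gave a count of 6, replicate 2 of that pair 3, and replicate 2 of untreated sh-PRDM16 gave 4. Slc25a10 and Slc25a35 passed whichever array was left out, and for the other 8 the highest adjusted p without an array was 0.0548 (Slc25a51) to 0.206 (Slc25a44).

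On the deposited scale the lines differed in fewer members under rosiglitazone, 5 against 10 without it. On median-centred arrays 12 differed without it, beside the 2 and 8 given below for treated cells. The counts with and without rosiglitazone were not tested against each other. Slc25a13, Slc25a28 and Slc25a37 were higher in sh-PRDM16 cells, 3 of 31 against 10.6% of all genes, and Slc25a26 and Slc25a33 were lower, 2 of 31 against 4.62%. The median was log2 -0.0049 for the members and 0.15 for all genes. On median-centred arrays 2 members were higher (10%) and 8 lower (13.5%), since Slc25a28 no longer passed and Slc25a10, Slc25a11, Slc25a20, Slc25a35, Slc25a46 and Slc25a51 did. The count of 5 on the deposited scale became 2 when replicate 1 of treated sh-scr was left out, 1 for replicate 2 of that pair, and 2 and 1 for replicates 1 and 2 of treated sh-PRDM16. Each of the 5 calls was lost without at least 1 array, with a highest adjusted p of 0.0569 (Slc25a37) to 0.204 (Slc25a28).

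The knockdown comparisons also differed in markers of other cells and of fat cell maturity. The counts below are to be read beside the shares of all genes. With rosiglitazone 32.2% of all genes fell in sh-scr and 3.31% in sh-PRDM16 cells, or 10.7% and 11.2% on median-centred arrays. In untreated sh-PRDM16 cells 15.5% were lower and 1.99% higher than in sh-scr cells. In treated cells 4.62% were lower (13.5% on median-centred arrays) and 10.6% higher. Of 9 macrophage markers measured 8 passed the filter, and 6 of these were lower in untreated and 7 in treated sh-PRDM16 cells. The summed intensity of the 9 was 4912 to 5335 in untreated sh-scr, 3152 to 3161 in treated sh-scr, 1045 to 1115 in untreated sh-PRDM16 and 845 to 882 in treated sh-PRDM16. Of 8 adipocyte markers, among them Adipoq at 9965 to 15191 over the 8 arrays, 6 were lower in untreated sh-PRDM16 cells (sum 47219 to 53986, against 75083 to 76326 in untreated sh-scr) and 1 in treated (63271 to 68013 against 69280 to 73695), or 5 in treated cells on median-centred arrays. Of 8 preadipocyte markers, 6 fell with rosiglitazone in sh-scr cells and 2 in sh-PRDM16 cells, or 5 and 6 on median-centred arrays, and their summed intensity was 15255 to 15738, 8396 to 9494, 13488 to 15876 and 10800.0 to 11702 in the same order of groups. All 6 markers of smooth muscle and pericytes were tested: 5 fell with rosiglitazone in sh-scr and 3 in sh-PRDM16 cells, and 1 was higher in untreated and 2 in treated sh-PRDM16 than in sh-scr cells (sums 29172 to 30201, 20304 to 21401, 28065 to 30224 and 26127 to 26434). Of 7 endothelial markers 5 were tested, of which 3 fell with rosiglitazone in sh-scr (1 on median-centred arrays) and 2 in sh-PRDM16 cells, and 1 was lower in treated sh-PRDM16 cells (sums 579 to 760, 346 to 379, 521 to 613 and 313 to 371). Of 6 skeletal muscle markers, Ckm, Myh4, Tnnt3 and Myod1 were below the filter, and of the 2 tested 1 fell with rosiglitazone in sh-scr cells and 1 was higher in sh-PRDM16 cells in each treatment. The sum of the 6 was 2021 to 2140 in untreated sh-scr, 738 to 978 in treated sh-scr, 3321 to 3598 in untreated sh-PRDM16 and 2724 to 2803 in treated sh-PRDM16. In bulk RNA, fewer cells of a type and less RNA per cell cannot be told apart, and the part of these markers in the carrier results was not tested.

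**Figure D2:**
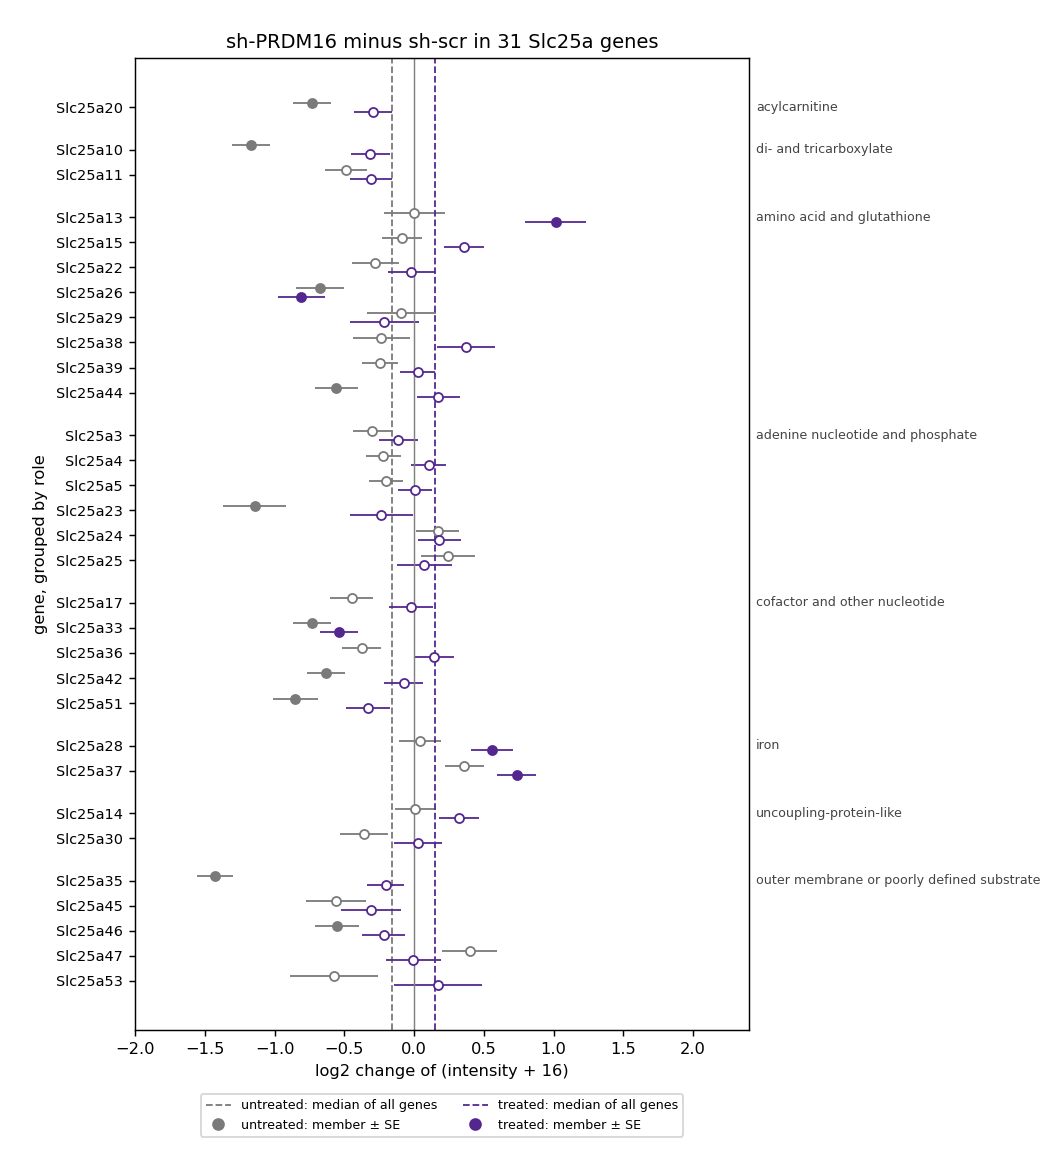
Difference between sh-PRDM16 and sh-scr cells in the 31 tested Slc25a genes, as log2 of (intensity + 16) ± SE, without (grey) and with rosiglitazone (purple), 2 arrays per group; filled points passed the adjusted p of 0.05 and dashed lines mark the median of all genes. The 10 filled grey points all lie below 0, down to -1.43 for Slc25a35, and the 5 filled purple points lie on both sides.

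The 5 comparisons share arrays: untreated sh-PRDM16 cells, for example, stand in both the untreated knockdown comparison and the rosiglitazone response of sh-PRDM16 cells. Values for a gene are therefore given side by side, and no agreement between such comparisons is counted as a result. Carriers are taken by role below, each with its intensity on all 8 arrays. Intensities of different probe sets cannot be set against each other, since probe sets differ in how strongly they bind.

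Slc25a20 exchanges acylcarnitines for carnitine across the inner membrane and so brings long-chain fatty acids to the matrix for oxidation. Its intensity was 2073 and 2495 in untreated sh-scr, 4982 and 5155 in treated sh-scr, 1419 and 1307 in untreated sh-PRDM16, and 4148 and 4106 in treated sh-PRDM16. Both treated pairs lay above all untreated arrays, and in each treatment the sh-PRDM16 pair lay below the sh-scr pair. With rosiglitazone it rose by log2 1.15 in sh-scr cells (SE 0.14, 2.22-fold, adjusted p = 0.000779) and by 1.59 in sh-PRDM16 cells (SE 0.14, 3.01-fold, adjusted p = 9.34e-05). The difference between these responses was 0.44 (SE 0.19) and did not pass (adjusted p = 0.193). Between the lines, Slc25a20 differed by -0.73 without rosiglitazone (SE 0.14, adjusted p = 0.00671) and by -0.30 with it (SE 0.14, adjusted p = 0.161, and -0.46 with adjusted p = 0.0251 on median-centred arrays). Its 2nd probe set gave changes of 1.03 and 1.66 with rosiglitazone in the sh-scr and sh-PRDM16 lines, both past the threshold.

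The upstream sequences of the members that changed in the same direction in both lines and have a single start in the RefSeq table are shown for what they share: Slc25a20 and Slc25a33, which rose, and Slc25a30, which fell. Each is the 250 bases before the start, read 5′ to 3′ on the gene's strand in build GRCm38.p6, from RefSeq. They lie at chr9:108661886-108662135 on the plus strand (Slc25a20), chr4:149774268-149774517 on the minus strand (Slc25a33) and chr14:75787038-75787287 on the minus strand (Slc25a30). Capitals mark the GC box GGGCGG and the CCAAT box on either strand.
Slc25a20: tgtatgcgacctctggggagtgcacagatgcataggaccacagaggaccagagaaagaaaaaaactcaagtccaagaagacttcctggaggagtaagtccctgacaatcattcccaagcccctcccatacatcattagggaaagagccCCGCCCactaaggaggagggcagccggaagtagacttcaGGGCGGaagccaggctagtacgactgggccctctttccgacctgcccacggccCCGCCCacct
Slc25a33: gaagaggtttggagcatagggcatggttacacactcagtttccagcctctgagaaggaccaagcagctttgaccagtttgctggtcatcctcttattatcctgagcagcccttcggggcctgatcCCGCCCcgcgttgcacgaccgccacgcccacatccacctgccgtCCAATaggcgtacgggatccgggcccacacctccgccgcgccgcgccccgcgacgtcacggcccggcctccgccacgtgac
Slc25a30: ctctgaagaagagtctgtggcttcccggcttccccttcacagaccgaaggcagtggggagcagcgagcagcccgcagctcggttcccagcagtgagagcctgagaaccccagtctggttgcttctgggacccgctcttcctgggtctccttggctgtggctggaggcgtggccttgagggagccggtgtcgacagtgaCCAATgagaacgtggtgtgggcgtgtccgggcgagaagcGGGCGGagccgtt
All 3 windows are rich in G and C, at 56.8%, 64.4% and 64.4% in that order. Slc25a20 has 3 GC boxes and no CCAAT match, and Slc25a33 and Slc25a30 have 1 of each. Of 33 members 26 matched the table, with 35 start windows. A GC box was found in 28 of the 35 windows (21 genes) beside 32.7% of all 32851 windows of this length, and CCAAT in 18 (15 genes) beside 33.8%. The DR1 repeat, AGGTCA written again after any 1 base, a form of the element that PPARγ binds with its partner RXR, was in 0 of the 35 windows and in 11 of all windows (0.0335%). Its single hexamer AGGTCA was in 3 member windows, beside 14.0% of all, and in none of the 3 shown. These are letter matches on both strands, and say only which letters stand in these windows.

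The carriers of dicarboxylates, Slc25a10 for malate and succinate against phosphate and Slc25a11 for oxoglutarate against malate, both rose with rosiglitazone in sh-PRDM16 cells. Slc25a10 read 1449 and 1726 in untreated sh-scr, 1543 and 1486 in treated sh-scr, 743 and 648 in untreated sh-PRDM16, and 1219 and 1209 in treated sh-PRDM16. The untreated sh-PRDM16 pair was far below the other 6 arrays, and the 2 sh-scr groups overlapped. Its change with rosiglitazone was log2 -0.06 in sh-scr cells (SE 0.14, adjusted p = 0.738) and 0.79 in sh-PRDM16 cells (SE 0.14, adjusted p = 0.00556). The knockdown difference was -1.17 without rosiglitazone (SE 0.14, adjusted p = 0.000703) and -0.32 with it (SE 0.14, adjusted p = 0.146). The 2 responses to rosiglitazone differed by 0.85 (SE 0.20), which did not pass (adjusted p = 0.0878).

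Slc25a11 read 1008 and 1089 in untreated sh-scr, 1353 and 1334 in treated sh-scr, 843 and 653 in untreated sh-PRDM16, and 1022 and 1139 in treated sh-PRDM16. Treated arrays lay above untreated arrays of the same line, and the sh-PRDM16 pair was the lower in each treatment. The rise in sh-PRDM16 cells was log2 0.53 (SE 0.15, adjusted p = 0.0476), close to the threshold, and that in sh-scr cells 0.35 (SE 0.15, adjusted p = 0.0901, and 0.67 with adjusted p = 0.00273 on median-centred arrays). The knockdown differences were -0.49 (adjusted p = 0.0536) and -0.31 (adjusted p = 0.179). In the fit over separate probe sets the rise in sh-PRDM16 cells did not pass (adjusted p = 0.0658).

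**Figure D3:**
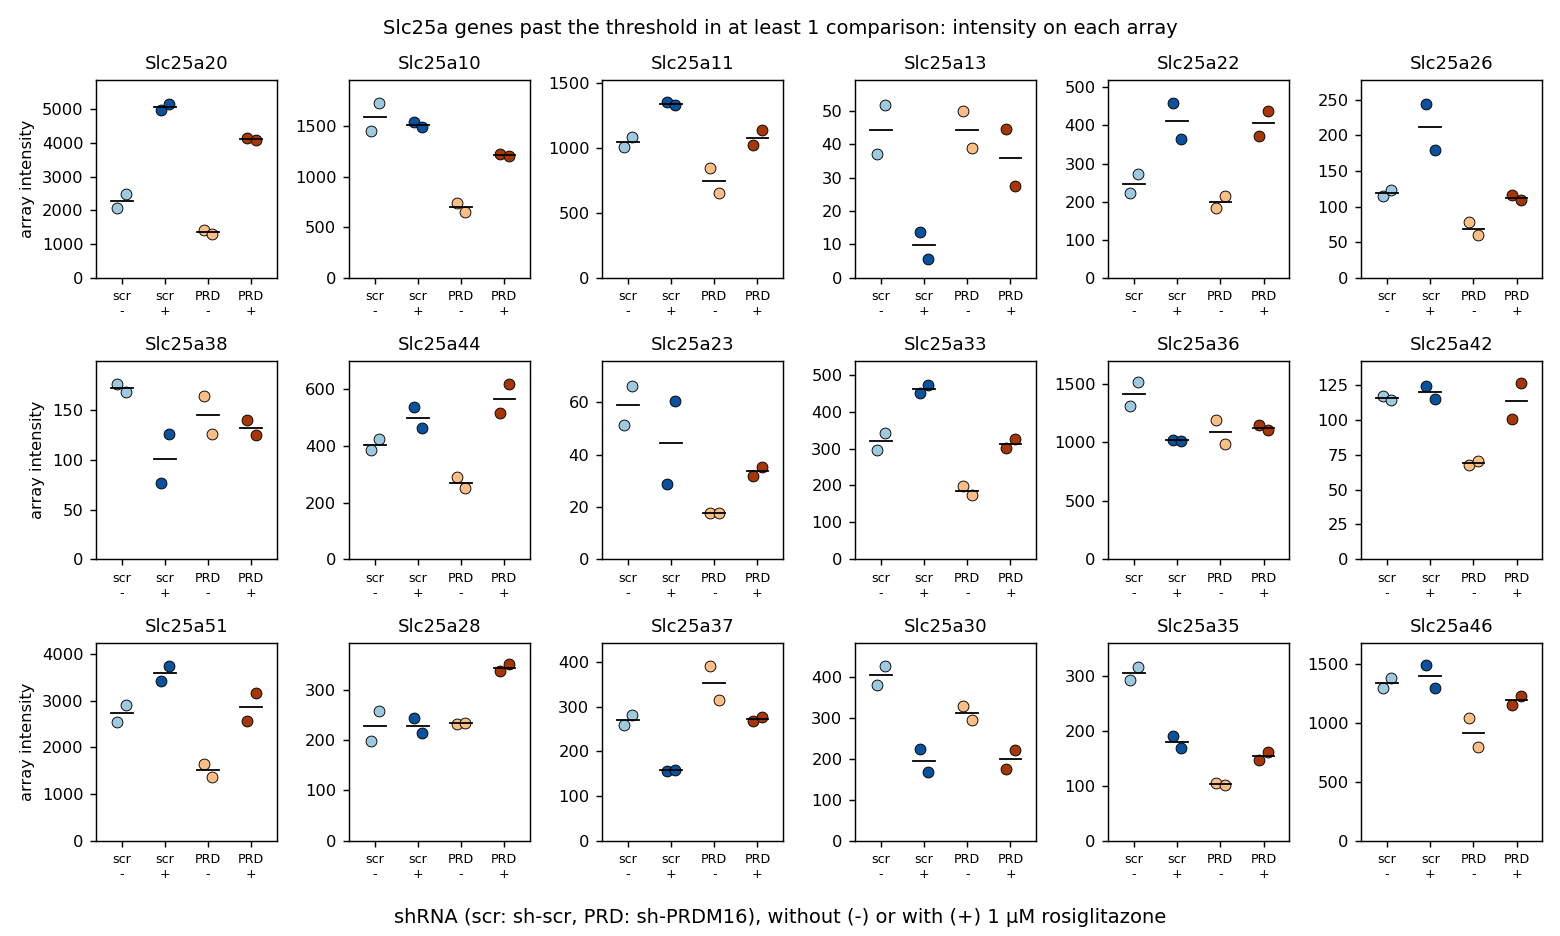
Array intensity (linear axes that start at 0) of the 18 Slc25a genes that passed the threshold in at least 1 of the 5 comparisons, for sh-scr (blue) and sh-PRDM16 cells (orange), without (light) and with 1 µM rosiglitazone (dark); points are arrays and bars the mean of 2. Slc25a20, Slc25a10 and Slc25a51 are lowest in untreated sh-PRDM16 cells (1363, 696 and 1507 on average), and Slc25a35 is highest in untreated sh-scr cells (305).

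Of the 8 carriers of amino acids, S-adenosylmethionine and glutathione that were tested, 2 rose and 2 fell in rosiglitazone-treated sh-scr cells (4 and 1 on median-centred arrays), and 3 rose in sh-PRDM16 cells, beside the shares of all genes given above. Slc25a22, which imports glutamate with a proton, read 222 and 271 in untreated sh-scr, 459 and 366 in treated sh-scr, 185 and 216 in untreated sh-PRDM16, and 373 and 438 in treated sh-PRDM16. The treated pairs of both lines stood in the same range, above all 4 untreated arrays. It rose by log2 0.70 in sh-scr cells (SE 0.17, adjusted p = 0.0138) and by 0.96 in sh-PRDM16 cells (SE 0.17, adjusted p = 0.00532). The knockdown differences were -0.28 and -0.02, and neither passed (adjusted p = 0.296 and 0.947).

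Slc25a44, a carrier of branched-chain amino acids that brown fat uses for heat production, read 384 and 426 in untreated sh-scr, 539 and 462 in treated sh-scr, 291 and 250 in untreated sh-PRDM16, and 518 and 618 in treated sh-PRDM16. The untreated sh-PRDM16 pair was the lowest, and the treated pairs of the 2 lines overlapped. Rosiglitazone raised it by log2 1.02 in sh-PRDM16 cells (SE 0.15, 2.03-fold, adjusted p = 0.00227), and the change in sh-scr cells was 0.29 (SE 0.15, adjusted p = 0.150, and 0.60 with adjusted p = 0.00324 on median-centred arrays). The knockdown difference was -0.56 without rosiglitazone (SE 0.15, adjusted p = 0.0347) and 0.17 with it (adjusted p = 0.444). The responses of the lines differed by 0.73 (SE 0.22, adjusted p = 0.130). A dimmer probe set of this gene rose in both lines in the fit over separate probe sets.

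Slc25a26 carries S-adenosylmethionine, the methyl donor, into mitochondria. The probe set that represents it read 115 and 123 in untreated sh-scr, 244 and 179 in treated sh-scr, 77.9 and 59.9 in untreated sh-PRDM16, and 116 and 109 in treated sh-PRDM16. Treated sh-scr stood above all other groups and untreated sh-PRDM16 below them. This probe set rose by log2 0.74 in sh-scr cells (SE 0.17, adjusted p = 0.0121) and by 0.61 in sh-PRDM16 cells (SE 0.17, adjusted p = 0.0451), with knockdown differences of -0.68 (adjusted p = 0.0250) and -0.81 (adjusted p = 0.0158). The 2nd, dimmer probe set differed from it. That one read 55.5 and 61.5, 58.1 and 59.5, 34.5 and 40.8, and 70.2 and 52.9 in the same order of groups, with changes of 0.0069 and 0.53 with rosiglitazone and of -0.47 and 0.043 with the knockdown, none of which passed in the fit over separate probe sets. In that fit the brighter probe set did not pass in sh-PRDM16 cells either (adjusted p = 0.0629). The name of the brighter probe set carries the suffix of designs that can read several transcripts. With the 2nd probe set in its place, the rise in sh-PRDM16 cells still passed (adjusted p = 0.0487), while the rise in sh-scr cells and both knockdown differences did not (adjusted p = 0.974, 0.0589 and 0.860).

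The falls in this group concerned Slc25a13 and Slc25a38 in sh-scr cells. Slc25a13, the aspartate and glutamate carrier citrin of the malate-aspartate shuttle, read 37.2 and 51.7 in untreated sh-scr, 13.8 and 5.7 in treated sh-scr, 49.9 and 38.8 in untreated sh-PRDM16, and 44.5 and 27.6 in treated sh-PRDM16. The treated sh-scr pair lay below the 6 other arrays, among which the groups overlapped. The fall in sh-scr cells was log2 -1.24 (SE 0.22, adjusted p = 0.00488), while the change in sh-PRDM16 cells was -0.23 (SE 0.22, adjusted p = 0.566). Treated sh-PRDM16 was higher than treated sh-scr by 1.01 (SE 0.22, adjusted p = 0.0173), and the test of the difference between the responses gave an adjusted p of 0.132. These intensities are near the 16 that was added before taking logs, which shrinks the log2 values. Both treated sh-scr readings were under the 20.1 that marks the filter's lower limit on the mean, so the size of the fall is uncertain.

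Slc25a38, which imports glycine for haem synthesis, read 177 and 169 in untreated sh-scr, 76.5 and 126 in treated sh-scr, 164 and 127 in untreated sh-PRDM16, and 140 and 125 in treated sh-PRDM16. The treated sh-scr arrays lay far apart, and the 2 sh-PRDM16 groups overlapped. The fall in sh-scr cells was log2 -0.72 (SE 0.21, adjusted p = 0.0252), or -0.41 (adjusted p = 0.254) on median-centred arrays, and the change in sh-PRDM16 cells was -0.11 (adjusted p = 0.783). Slc25a15 for ornithine, Slc25a29 for basic amino acids and Slc25a39 for glutathione, each by its brightest probe set, passed in no comparison on the deposited scale. Of the 3 probe sets of Slc25a39, a dimmer one rose with rosiglitazone in sh-PRDM16 cells by 0.69 (adjusted p = 0.0270), and the others gave 0.35 and 0.53 (adjusted p = 0.133 and 0.0508). Only the name of the one at 0.53 lacks a suffix of shared designs. With it in place of the brightest, the rise of Slc25a39 in sh-PRDM16 cells passed in the fit over genes (adjusted p = 0.0377).

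Of 6 tested carriers of adenine nucleotides and phosphate, none changed with rosiglitazone by limma in either line on the deposited scale. At an unadjusted p under 0.05, 1 (Slc25a25) was higher in treated sh-scr and 2 (Slc25a5 and Slc25a23) in treated sh-PRDM16 cells. Of all genes, 5.2% rose and 32.2% fell in sh-scr cells, and 10.1% rose and 3.31% fell in sh-PRDM16 cells. At the unadjusted p, 6.61% of all genes were higher in treated sh-scr and 16.6% in treated sh-PRDM16 cells. Slc25a4 and Slc25a5 are the ADP/ATP carriers of the heart type and the common type. Whether their probe sets also read related sequences was not checked, so their signal is uncertain as to the gene. Slc25a4 read 7578 and 7598 in untreated sh-scr, 7300.0 and 7148 in treated sh-scr, 6823 and 6216 in untreated sh-PRDM16, and 7464 and 8096 in treated sh-PRDM16. Its change in sh-scr cells was log2 -0.07 (adjusted p = 0.666) on the deposited scale and 0.24 (adjusted p = 0.0476) on median-centred arrays, and its other bright probe sets gave -0.01 and -0.36 on the deposited scale. Slc25a5 read 9928 and 9536 in untreated sh-scr, 10327 and 10803 in treated sh-scr, 8668 and 8234 in untreated sh-PRDM16, and 10223 and 11016 in treated sh-PRDM16. Its changes with rosiglitazone were 0.12 (adjusted p = 0.455) and 0.33 (adjusted p = 0.117), and the first was 0.43 (adjusted p = 0.0184) on median-centred arrays. Slc25a3, the phosphate carrier, moved by -0.05 in sh-scr and 0.14 in sh-PRDM16 cells (adjusted p = 0.796 and 0.582).

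The only call in this group was that of Slc25a23, a calcium-regulated carrier that exchanges ATP-Mg for phosphate. It read 51.3 and 66.4 in untreated sh-scr, 28.6 and 60.4 in treated sh-scr, 17.7 on both arrays of untreated sh-PRDM16, and 31.9 and 35.3 in treated sh-PRDM16. The untreated sh-PRDM16 values were under the 20.1 that marks the filter's lower limit on the mean. The untreated knockdown difference was log2 -1.14 (SE 0.23, adjusted p = 0.00906), and -0.95 (adjusted p = 0.0510) on median-centred arrays. Its relatives Slc25a24 and Slc25a25 passed in no comparison on the deposited scale.

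Among 5 tested carriers of cofactors and other nucleotides, 1 rose and 1 fell in treated sh-scr cells (2 and 0 on median-centred arrays). In sh-PRDM16 cells 3 rose, and 3 were lower in untreated sh-PRDM16 than in untreated sh-scr cells. Of all genes, 5.2% rose and 32.2% fell in sh-scr cells (14.9% and 10.7% on median-centred arrays). In sh-PRDM16 cells 10.1% of all genes rose, and 15.5% were lower in the untreated knockdown comparison. Slc25a51, which brings NAD into the matrix, read 2544 and 2910 in untreated sh-scr, 3429 and 3740 in treated sh-scr, 1640 and 1374 in untreated sh-PRDM16, and 2561 and 3159 in treated sh-PRDM16. The untreated sh-PRDM16 pair lay below all other arrays and the treated sh-scr pair above them. Rosiglitazone raised it by log2 0.91 in sh-PRDM16 cells (SE 0.16, adjusted p = 0.00510), and the change in sh-scr cells was 0.39 (SE 0.16, adjusted p = 0.0755, and 0.71 with adjusted p = 0.00575 on median-centred arrays). The knockdown difference was -0.85 without rosiglitazone (SE 0.16, adjusted p = 0.00671) and -0.33 with it (adjusted p = 0.174). All 3 of its probe sets passed in the same direction in the untreated knockdown comparison and in treated against untreated sh-PRDM16 cells. In the other 2 comparisons they differed: 1 rose in sh-scr cells (0.82, adjusted p = 0.00679) and was lower in the treated knockdown (-0.56, adjusted p = 0.0385), and the other two passed in neither.

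Slc25a33 carries pyrimidine nucleotides, as does its relative Slc25a36. It read 297 and 343 in untreated sh-scr, 450 and 473 in treated sh-scr, 200 and 173 in untreated sh-PRDM16, and 301 and 325 in treated sh-PRDM16. Treated sh-PRDM16 stood in the range of untreated sh-scr, with treated sh-scr above and untreated sh-PRDM16 below. It rose by log2 0.51 in sh-scr cells (SE 0.14, adjusted p = 0.0206) and by 0.70 in sh-PRDM16 cells (SE 0.14, adjusted p = 0.00950). The knockdown differences were -0.73 (SE 0.14, adjusted p = 0.00696) and -0.54 (SE 0.14, adjusted p = 0.0313). Slc25a36 read 1310 and 1513 in untreated sh-scr, 1023 and 1010 in treated sh-scr, 1189 and 982 in untreated sh-PRDM16, and 1145 and 1106 in treated sh-PRDM16. Its fall in sh-scr cells was -0.46 (SE 0.14, adjusted p = 0.0323), and -0.15 (adjusted p = 0.284) on median-centred arrays. Its other probe set gave -0.11.

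Slc25a42 imports coenzyme A. It read 118 and 115 in untreated sh-scr, 125 and 115 in treated sh-scr, 67.8 and 70.7 in untreated sh-PRDM16, and 101 and 127 in treated sh-PRDM16. The untreated sh-PRDM16 pair alone stood apart, and the other 3 groups overlapped. It rose with rosiglitazone by log2 0.60 in sh-PRDM16 cells (SE 0.14, adjusted p = 0.0206) beside 0.04 in sh-scr cells (adjusted p = 0.820), and the untreated knockdown difference was -0.63 (SE 0.14, adjusted p = 0.0136). The responses of the lines differed by 0.56 (SE 0.20, adjusted p = 0.159). Slc25a17, the peroxisomal member, passed in no comparison.

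The iron carriers, mitoferrin 1 (Slc25a37) and mitoferrin 2 (Slc25a28), which supply iron for haem and iron-sulfur clusters, were both higher in sh-PRDM16 than in sh-scr cells under rosiglitazone. Slc25a37 read 259 and 281 in untreated sh-scr, 157 and 158 in treated sh-scr, 391 and 314 in untreated sh-PRDM16, and 268 and 278 in treated sh-PRDM16. The treated sh-scr pair lay below all other arrays and the untreated sh-PRDM16 pair above them. It fell in sh-scr cells by log2 0.72 (SE 0.14, adjusted p = 0.00690), and the change in sh-PRDM16 cells was -0.34 (SE 0.14, adjusted p = 0.147, and -0.39 with adjusted p = 0.0167 on median-centred arrays). The knockdown differences were 0.36 without rosiglitazone (adjusted p = 0.111) and 0.74 with it (SE 0.14, adjusted p = 0.0104).

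Slc25a28 read 199 and 258 in untreated sh-scr, 243 and 214 in treated sh-scr, 232 and 235 in untreated sh-PRDM16, and 338 and 350 in treated sh-PRDM16. Treated sh-PRDM16 was the only group that stood apart. Rosiglitazone raised it in sh-PRDM16 cells by 0.53 on the log2 scale (SE 0.15, adjusted p = 0.0470), beside 0.01 in sh-scr cells (adjusted p = 0.961), and treated sh-PRDM16 exceeded treated sh-scr by 0.56 (SE 0.15, adjusted p = 0.0366). On median-centred arrays that last difference was 0.40 (adjusted p = 0.0571). The responses of the lines differed by 0.52 (adjusted p = 0.182). In the fit over separate probe sets the rise in sh-PRDM16 cells and the difference in treated cells did not pass (adjusted p = 0.0650 and 0.0524).

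Slc25a30, a relative of the uncoupling proteins, was the only member that fell in both lines on the deposited scale. On median-centred arrays Slc25a37 did too (-0.41 with adjusted p = 0.0140 and -0.39 with adjusted p = 0.0167). Its intensity was 381 and 427 in untreated sh-scr, 224 and 168 in treated sh-scr, 329 and 295 in untreated sh-PRDM16, and 176 and 222 in treated sh-PRDM16. The treated pairs of both lines overlapped and lay below all untreated arrays. The falls were log2 -0.998 in sh-scr cells (SE 0.17, adjusted p = 0.00453) and -0.61 in sh-PRDM16 cells (SE 0.17, adjusted p = 0.0459), and the knockdown differences were -0.36 (adjusted p = 0.194) and 0.03 (adjusted p = 0.923). In the fit over separate probe sets, 2 of its 3 passed in sh-scr cells and 0 in sh-PRDM16 cells, where the changes were -0.30, -0.61 and -0.59. Slc25a14, the other member of this kind, passed in no comparison.

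Slc25a35, a carrier whose substrate is not settled, had the largest knockdown difference of the family. It read 293 and 318 in untreated sh-scr, 191 and 169 in treated sh-scr, 105 and 102 in untreated sh-PRDM16, and 146 and 161 in treated sh-PRDM16. No 2 groups overlapped, and the order was untreated sh-scr, treated sh-scr, treated sh-PRDM16 and untreated sh-PRDM16. Rosiglitazone lowered it in sh-scr cells by log2 -0.72 (SE 0.13, adjusted p = 0.00550) and raised it in sh-PRDM16 cells by 0.51 (SE 0.13, adjusted p = 0.0326). The untreated knockdown difference was -1.43 (SE 0.13, adjusted p = 0.000202) and the treated one -0.20 (SE 0.13, adjusted p = 0.294). The difference between the responses was 1.22 (SE 0.18, adjusted p = 0.0331), the only interaction that passed among 31 members, against 0.603% of all genes in this direction. In the opposite direction limma called 0 members (0.0646% of all genes). In the fit over separate probe sets the interaction of Slc25a35 did not pass (adjusted p = 0.0588). At an unadjusted p under 0.05, 10 members had a positive interaction (24.6% of all genes) and 0 a negative one (0.807%), and the median interaction was 0.37 for the members and 0.33 for all genes. On median-centred arrays the value for Slc25a35 was 0.87 (adjusted p = 0.0795), and it passed in 1 of 8 fits that left out an array, with adjusted p up to 0.134.

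Slc25a46, which sits in the outer membrane and acts in mitochondrial fission and fusion, read 1294 and 1382 in untreated sh-scr, 1491 and 1292 in treated sh-scr, 1036 and 793 in untreated sh-PRDM16, and 1152 and 1229 in treated sh-PRDM16. Untreated sh-PRDM16 was the lowest pair, and the sh-scr groups overlapped. The untreated knockdown difference was log2 -0.55 (SE 0.16, adjusted p = 0.0402). In the fit over separate probe sets neither of its 2 passed there (limma adjusted p = 0.0579 and 0.0543). Slc25a45, Slc25a47 and Slc25a53, whose substrates are poorly defined, passed in no comparison on the deposited scale.

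Altogether 18 members passed in at least 1 comparison, beside 52.8% of all genes, and 13 in none: Slc25a3, Slc25a4, Slc25a5, Slc25a14, Slc25a15, Slc25a17, Slc25a24, Slc25a25, Slc25a29, Slc25a39, Slc25a45, Slc25a47 and Slc25a53. Their changes ranged from log2 -0.45 to 0.50 with rosiglitazone in sh-scr cells and from -0.36 to 0.37 in sh-PRDM16 cells. The smallest adjusted p among them was 0.0572, for Slc25a15 in sh-scr cells (log2 -0.39). That a test was not passed does not show that these carriers stayed the same, since a change near the median SE of 0.15 cannot be seen with 2 arrays per group.

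The 65 probe sets give a check on the choice of 1 probe set per gene. In a fit over all 15285 probe sets above the filter, 55 of the family were tested. With rosiglitazone in sh-scr cells 7 rose (3.98% of all probe sets) and 7 fell (25.4%), and in sh-PRDM16 cells 14 rose (7.49%) and 0 fell by limma's adjusted p (2.26%, and 3 at an unadjusted p under 0.05), with Slc25a30 the single gene that fell there at gene level. In untreated cells 13 were lower in the knockdown line (10.9%) and limma called 0 higher (1.27%, and 1 at an unadjusted p under 0.05), and under rosiglitazone 2 were higher (6.97%) and 3 lower (3.37%). Both probe sets of Slc25a10 and both of Slc25a20 passed in the same comparisons. Of the 3 probe sets of Slc25a44, 2 rose in sh-PRDM16 cells (1.02 and 1.27), and the 3rd gave 0.09. The one at 1.27 also rose in sh-scr cells (0.48, adjusted p = 0.0353). It was lower in the untreated knockdown (-0.79, adjusted p = 0.00873), where the brightest did not pass (-0.56, adjusted p = 0.0507). Of the 12 genes with more than 1 tested probe set, 6 had probe sets that differed in call in at least 1 of the 4 comparisons: Slc25a26, Slc25a30, Slc25a36, Slc25a39, Slc25a44 and Slc25a51.

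**Figure D4:**
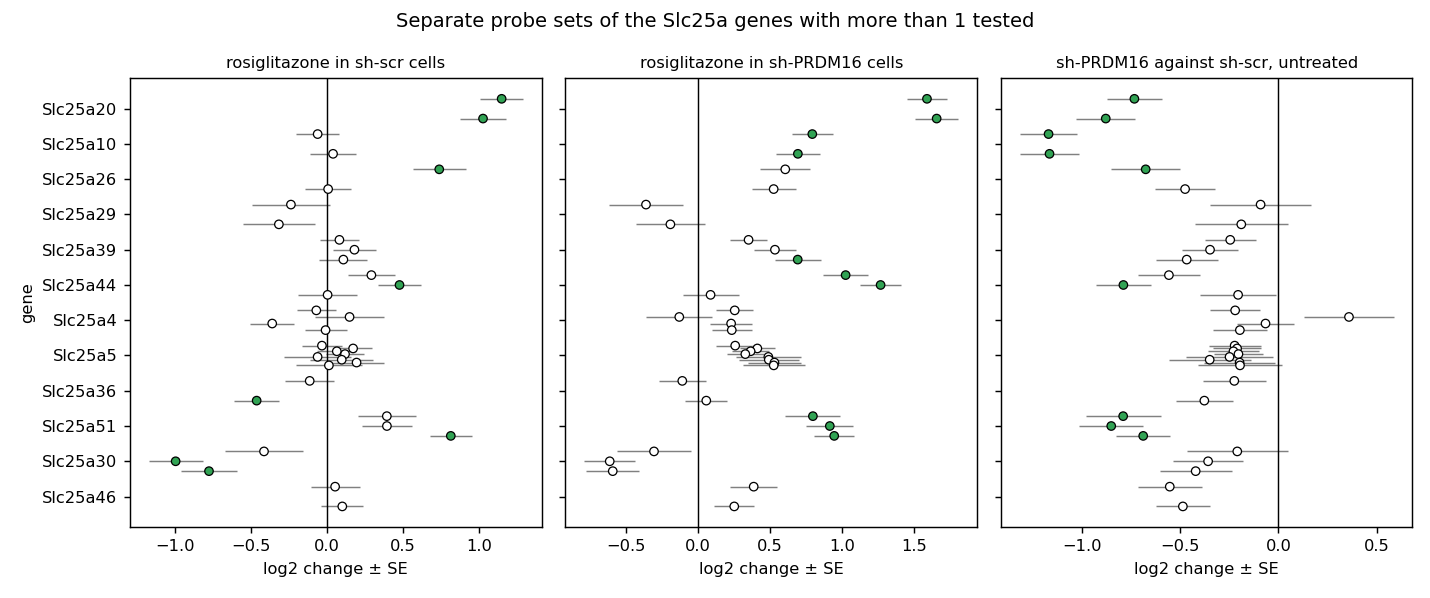
Log2 change of (intensity + 16) ± SE of each tested probe set, for the 12 Slc25a genes with more than 1 tested, in 3 comparisons with 2 arrays per group; each point is a probe set and green points passed the adjusted p of 0.05. The probe sets of Slc25a20 and of Slc25a10 have the same calls, while those of Slc25a26 (0.74 and 0.0069 in sh-scr cells) and Slc25a44 lie apart.

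Proteins that work beside the carriers were counted from lists by function, to be read beside the shares of all genes that rose (5.2% in sh-scr and 10.1% in sh-PRDM16 cells) and were lower in untreated sh-PRDM16 cells (15.5%, or 12.2% on median-centred arrays). Falls in sh-scr cells are to be read beside 32.2% of all genes, or 10.7% on median-centred arrays. On median-centred arrays, where 14.9% of all genes rose in sh-scr and 13.6% in sh-PRDM16 cells, the counts differed and are given too, and no difference between the lines was tested for a list. Of 10 genes of the acylcarnitine system, which hands fatty acids to Slc25a20, 8 rose in sh-scr cells and 9 in sh-PRDM16 cells with rosiglitazone, and 7 were lower in untreated sh-PRDM16 than in untreated sh-scr cells. Cpt2, which takes over acyl groups from acylcarnitine on the matrix side, changed by log2 0.65 (adjusted p = 0.0100) and 1.25 (adjusted p = 0.000475) with rosiglitazone in sh-scr and sh-PRDM16 cells, beside 1.15 and 1.59 for Slc25a20. Crat, the carnitine acetyltransferase, rose by 1.16 and 1.19 (adjusted p = 0.00123 and 0.000817). Cpt1a, which makes the acylcarnitine that Slc25a20 imports, was at -0.05 in sh-scr cells (adjusted p = 0.797) and rose by 0.64 in sh-PRDM16 cells (adjusted p = 0.0183).

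A list of 14 enzymes covered the malate-aspartate shuttle, citrate export and the glycerol phosphate shuttle. Of these, 2 rose in sh-scr and 9 in sh-PRDM16 cells (8 and 10 on median-centred arrays), and 8 were lower in untreated sh-PRDM16 cells. Of 17 ATP synthase genes, which depend on Slc25a3 to Slc25a5 for phosphate and ADP, 2 rose and 1 fell in sh-scr cells, 10 rose in sh-PRDM16 cells and 8 were lower in untreated sh-PRDM16 cells. On median-centred arrays 14 rose in sh-scr and 13 in sh-PRDM16 cells, and 6 were lower. Of 11 iron-sulfur and haem genes, served by Slc25a28, Slc25a37 and Slc25a38, 4 rose and 3 fell in sh-scr cells (5 and 0 on median-centred arrays), 4 rose in sh-PRDM16 cells and 5 were lower in untreated sh-PRDM16 cells (3 on median-centred arrays). Of 21 genes of the outer membrane channels and protein import, 3 rose and 1 fell in sh-scr cells, 12 rose in sh-PRDM16 cells and 5 were lower in untreated sh-PRDM16 cells. On median-centred arrays 17 rose in sh-scr and 15 in sh-PRDM16 cells.

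The carrier fold also occurs under other symbols, of which Ucp1, Ucp3, Mtch1 and Mtch2 were measured. Ucp1 read 5.2 and 20.6 in untreated sh-scr, 1296 and 1322 in treated sh-scr, 4.6 and 3.4 in untreated sh-PRDM16, and 81.9 and 101 in treated sh-PRDM16. It rose by log2 5.57 in sh-scr and 2.42 in sh-PRDM16 cells, an interaction of -3.15 (SE 0.32, adjusted p = 0.00943), the opposite sign to the 1.22 of Slc25a35. Untreated readings of Ucp1 lie near or below the 16 added before taking logs, so the sizes of its log2 values depend on that 16. Mtch1 fell in sh-scr cells by 0.76 (adjusted p = 0.00541), and Mtch2 rose in sh-PRDM16 cells by 0.56 (adjusted p = 0.0250). Of 14 other inner-membrane transporters 3 rose and 5 fell in sh-scr cells (6 and 2 on median-centred arrays) and 8 rose in sh-PRDM16 cells, among them Mpc1, a subunit of the pyruvate carrier, at 0.55 (adjusted p = 0.0149) and 1.22 (adjusted p = 0.000413). In untreated cells Mpc1 differed by -1.09 between the lines (adjusted p = 0.000842), beside -1.17 for Slc25a10.

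**Figure D5:**
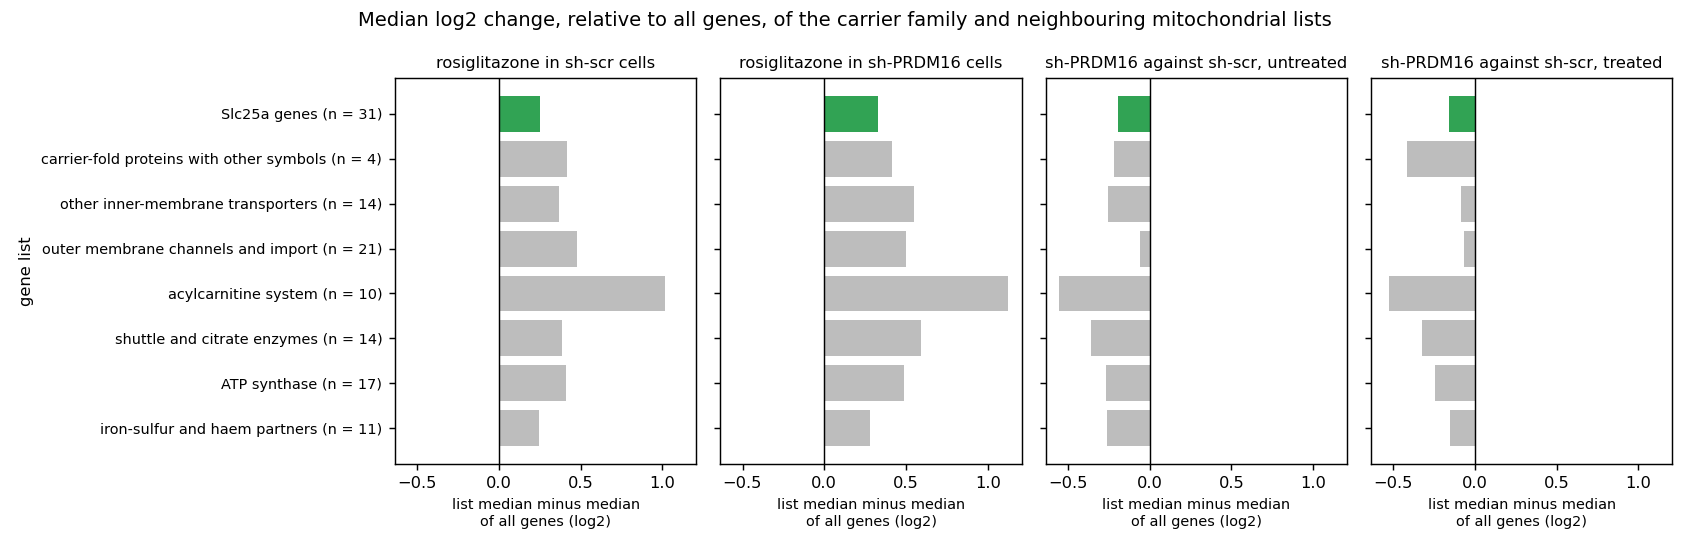
Median log2 change of the Slc25a genes (green) and of lists of neighbouring mitochondrial genes (grey), minus the median of all 9294 genes, in 4 comparisons; n is the number of genes tested. The Slc25a bars (0.25, 0.33, -0.20 and -0.16) point the same way as those of the other lists, and the acylcarnitine system has the longest bars (1.02, 1.12, -0.55 and -0.53).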

How the data were processed

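The data were array intensities, 1 table of 22690 probe sets by 8 Affymetrix mouse 430A_2 arrays as deposited by the authors. Trizol RNA was copied from an oligo-dT primer, per the labels' protocols, and transcribed into biotin-labelled cRNA, so a probe set reads mainly the 3′ end of a transcript. The intensity values the authors deposited are linear, and how they were summarized and scaled is not given in the sources used here. No detection calls were used, so a dim gene cannot be called absent.

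Samples were grouped by their titles and labels. Gene names came from the platform annotation, and 33 of 33 members matched RefSeq by Entrez identifier. Of the probe sets, 20380 had 1 gene, 691 several (0 of them with a Slc25a gene) and 1555 none listed, and 64 were controls. Each gene was represented by its brightest probe set (highest mean log2), and 9294 of 12393 genes were tested after dropping the 25% with the lowest mean. With limma 3.58.1 in R 4.3.3 (lmFit, then eBayes), 1 model of log2(intensity + 16) took all 8 arrays with a mean per group (4 residual degrees of freedom, prior 5.31), two-sided, with Benjamini-Hochberg adjustment over all genes of a contrast. Adding 16 shrinks the log2 change of dim genes, whose signal over background is not known. The code was tested on simulated data.

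The members, lists and alternatives were chosen with earlier results of these data known. Members past the threshold in any of the 5 comparisons are described by role with every array's value, the others by ranges. Ucp1, Ucp3, Mtch1, Mtch2, Mpc1, Cpt1a, Cpt2 and Crat are named in every case, and Ucp2 and Mpc2 were not analysed here. Promoters were chosen for display after values were seen. Companion lists are described by counts alone, with no test of a list. Replicate numbers were not used to pair the samples, and deviations of same-numbered arrays correlated at -0.02 to 0.05 between groups. The labels do not say whether same-numbered arrays share a culture or mouse.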

Additional observations from a re-analysis of the deposited data

Results flagged for a closer look

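Slc25a35 stood out because its response to rosiglitazone differed between the lines. The response in sh-PRDM16 cells minus that in sh-scr cells was log2 1.22 (SE 0.18, adjusted p = 0.0331 by limma), with both sh-scr arrays lower and both sh-PRDM16 arrays higher under treatment (191 and 169 after 293 and 318, and 146 and 161 after 105 and 102). It was 0.87 on median-centred arrays (adjusted p = 0.0795) and 0.87 on quantile-normalized arrays (adjusted p = 0.0641). Of the 10 alternatives that used all arrays, 6 kept the call. It was lost on those 2 scales, with no filter and with a pseudocount of 1. In the fit over separate probe sets it did not pass either (limma adjusted p = 0.0588). In the fits that each left out 1 array, the value ran from 1.14 to 1.30 and passed in 1 of 8. Markers of macrophages and adipocytes also differed between the lines, and their part in this difference was not tested.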

How the results depend on the processing

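Of 38 calls of members over the 5 comparisons, 33 were kept on median-centred arrays and 33 after quantile normalization, 24 with no filter on low values, 30 with a pseudocount of 1, 38 with a pseudocount of 64, 38 with a trended prior, 32 with the mean of all probe sets and 34 with the brightest probe set whose name lacks the suffixes of shared designs, an alternative chosen after seeing the data. With the replicate block the calls kept were 34, and the counts of members called moved from 10, 12, 10, 5 and 1 to 11, 8, 11, 5 and 1. Whether the replicate numbers pair samples is not given in the labels. In results that reversed, Slc25a4 in sh-scr cells went from log2 -0.07 to 0.24 on median-centred arrays (adjusted p = 0.0476), and Slc25a26 in treated cells from -0.81 to 0.043 with its other probe set (adjusted p = 0.860). The number of members called in sh-scr cells was 17 on median-centred arrays rather than 10, that in sh-PRDM16 cells 7 with no filter rather than 12, and that in the untreated knockdown 16 with a trended prior rather than 10. In the treated knockdown it was 10 on median-centred and 10 on quantile-normalized arrays and 2 with no filter, rather than 5. For the interaction it was 0 on median-centred arrays, 0 on quantile-normalized arrays, 0 with no filter and 0 with a pseudocount of 1 (limma in each, 10 members at an unadjusted p under 0.05 on the deposited scale), 3 with the lower 50% of genes left out, 3 with a pseudocount of 64 and 5 with a trended prior, rather than 1.

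The members' median change in sh-scr cells was 0.25 on median-centred and 0.20 on quantile-normalized arrays rather than -0.06. In the untreated knockdown it was -0.17 on both rather than -0.36, in the treated knockdown -0.17 and -0.14 rather than -0.0049, and for the interaction 0.022 and 0.032 rather than 0.37. Leaving out each array in turn, with the lone array of a group taken to vary like the others, gave 5 to 11 members called in sh-scr cells, 5 to 11 in sh-PRDM16 cells, 3 to 13 in the untreated and 1 to 5 in the treated knockdown, and 0 to 1 for the interaction. The medians then ran from -0.073 to 0.024, from 0.27 to 0.38, from -0.44 to -0.27, from -0.13 to 0.068 and from 0.26 to 0.50. Fits of only the 4 arrays compared kept 33 of 37 calls. The filter and the pseudocount act on dim members such as Slc25a13 and Slc25a23, whose signal over background is not known here.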
